A study of Homo sapiens with 4 samples.

Results

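The genes examined here are 10 genes of megakaryocytes and platelets: ITGA2B, ITGB3, GP1BA, GP1BB, GP9, PF4, PPBP, TUBB1, SELP and VWF. They were found by their symbol among the 28412 genes of the table. A row was found for 6 of the 10 genes, namely ITGA2B, ITGB3, GP1BA, PF4, PPBP and TUBB1. GP1BB, GP9, SELP and VWF were not analysed here. Of the 6 genes, 3 had a mean of at least 1 FPKM (fragments scaled to gene length and sequencing depth, a level per gene length) and were tested, and 3 lay under this level.

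The RNA sequenced came from cells labelled NB4, the name of a human promyelocytic leukemia line. The control group, sh-NC, had 2 libraries, and the knockdown group, sh-LDB1 (an shRNA against LDB1), also had 2. The vectors of both groups were lentiviral, the labels describe the control samples as without treatment, and which of the study's LDB1 shRNAs was sequenced is not stated. Nothing says that the 2 libraries of a group came from separate cultures, so the p-values measure the spread between libraries, which may be technical.

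Megakaryocytes are the bone marrow cells that shed platelets, and they share a progenitor with red cells. Platelets bind to a wounded vessel through the glycoprotein Ib complex, whose chains are the products of GP1BA, GP1BB and GP9, and whose ligand is VWF. They then bind fibrinogen and each other through the integrin of ITGA2B and ITGB3. Alpha granules hold the chemokines PF4 and PPBP and the adhesion protein SELP. TUBB1 is the beta tubulin of the marginal band, the microtubule coil that gives the platelet its disc shape. LDB1 is the adaptor of a transcription complex with GATA1, TAL1 and LMO2 that works in both the red cell and the megakaryocyte lineage.

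The deposited values corresponded to 15147060 to 17651152 recovered reads per library, summed over genes. The value of a single read, from the steps between low values, implied totals of 14746656 to 16182674. The sums exceeded these totals more in sh-NC than in sh-LDB1. LDB1 gave 135.1 and 120.1 FPKM with sh-NC, against 10.2 and 9.47 FPKM with sh-LDB1, so the libraries bore out their labels. The markers went against the name of the line, since those of erythroid cells far exceeded those of promyelocytes. The paper states that its cell lines were checked by STR (short tandem repeat) profiling, and its supplement reports a match to NB4. Whether that covers the cells sequenced is not stated. Their identity was not tested here, so the values below are those of cells so labelled. Among 8 promyelocytic markers with a row, ELANE had a value above 0 in sh-LDB1 replicate 1 alone (0.182 FPKM), and MPO and CTSG were not analysed here. The 12 erythroid markers summed to 3981 and 4158 FPKM in sh-NC and to 347.7 and 312.5 FPKM in sh-LDB1, and all 12 fell, with the globins HBZ and HBA2 at log2 fold changes of -4.69 and -3.20 and the erythroid factor KLF1 at -3.01. The 8 promyelocytic markers summed to 13.1 and 11.7 FPKM with sh-NC, against 41.4 and 37.9 FPKM with sh-LDB1. Of 6 tested, LYZ, CSF3R and PRTN3 rose, 0 fell and 3 were not called. LYZ and CSF3R carried most of the rise of the sum. CEBPE, among those not called, gave 1.55 and 1.27 FPKM with sh-NC, against 0.924 and 0.340 FPKM with sh-LDB1, and MS4A3, not tested, was listed at 0 FPKM in both sh-LDB1 libraries. In bulk samples, fewer cells of a type and less RNA per cell cannot be told apart. The part of these shifts in the results that follow was not tested.

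Among the megakaryocyte and platelet genes, TUBB1 fell to 5.83% of its control level, while no change was called for ITGA2B and GP1BA. The remaining genes with a row, ITGB3, PPBP and PF4, were under 1 FPKM in every library. A gene was called at an adjusted p-value below 0.05 (limma, Benjamini-Hochberg over 13300 genes) and a fold change above 2 or below 0.5. Of the 3 genes tested, 1 was called lower, against 10.3% of all genes tested, and 0 were called higher, against 9.5% of all genes tested. By the adjusted p-value alone, 1 was lower and 0 were higher, against 37.4% and 29.9% of all genes tested. With 3 genes these counts say little, and the genes are described singly.

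TUBB1 (ENSG00000101162) is encoded at 59019429 to 59026654 on chromosome 20 (GRCh38, plus strand). Its level came to 5.97 and 5.41 FPKM with sh-NC, against 0.286 and 0.378 FPKM with sh-LDB1. The values rested on 338 and 279 reads in sh-NC and on 16 and 20 reads in sh-LDB1. Both sh-LDB1 libraries were far below both sh-NC libraries, and the counting intervals of the groups did not overlap. A lower level without overlap was found for 46.3% of all genes tested. The mean fell from 5.69 ± 0.398 FPKM to 0.332 ± 0.0653 FPKM (SD, n = 2 each), a level 17.2-fold lower. On the log2(FPKM + 1) scale this is a fold change of -2.33 ± 0.106 (standard error, limma, 95% interval -2.61 to -2.04, adjusted p = 0.000165). The added 1 FPKM understates the change of so low a gene. The fold change was -3.75 with 0.1 FPKM added, and -4.08 by voom on the recovered reads.

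The rank of TUBB1 among all genes moved with it. It lay at percentile 76.3 and 74.7 of the 28412 genes in the sh-NC libraries and at percentile 35.2 and 39.0 in the sh-LDB1 libraries. It made up 64.4% and 64.6% of the summed FPKM of the 6 genes in sh-NC, but 6.13% and 9.69% in sh-LDB1. So the sum of the 6 genes, 9.27 and 8.38 FPKM in sh-NC and 4.66 and 3.90 FPKM in sh-LDB1, mostly followed TUBB1.

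**Figure D1:**
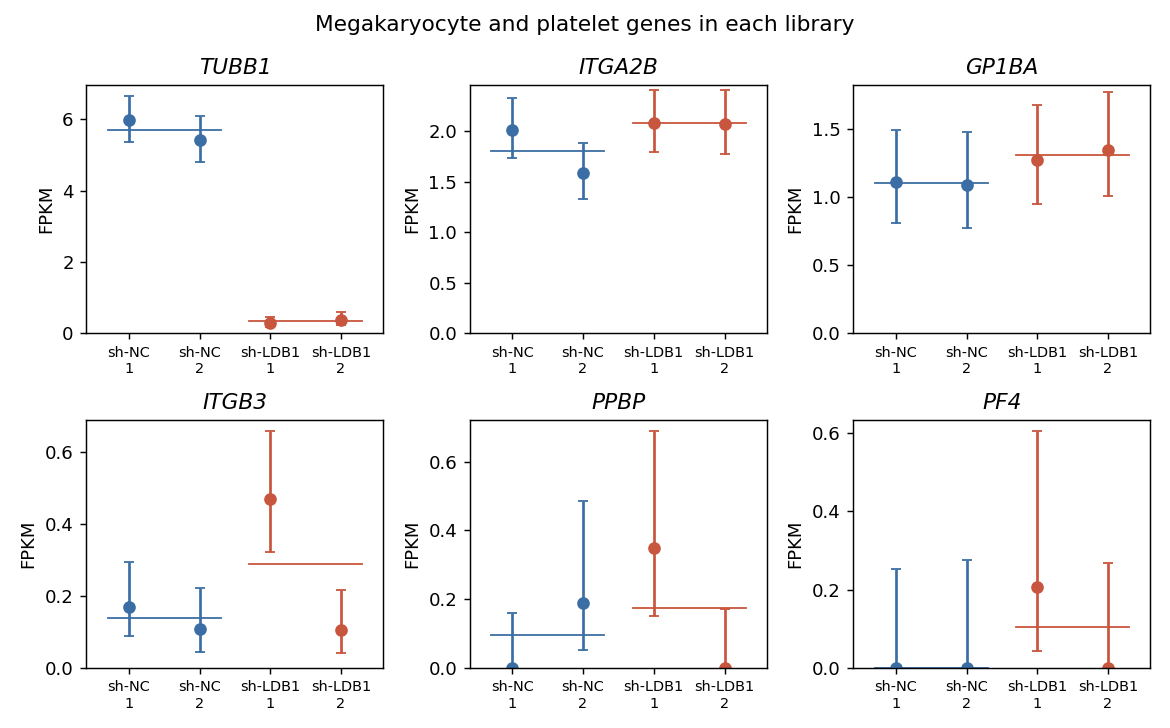
FPKM of the 6 genes in each of the 4 libraries, each panel on its own linear axis from 0. Points are single libraries, bars are 95% exact Poisson intervals of the recovered reads and horizontal lines are group means. TUBB1 was between 5.41 and 5.97 FPKM in sh-NC and between 0.286 and 0.378 FPKM in sh-LDB1, and no other gene shows such a gap.

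ITGA2B (ENSG00000005961), the alpha chain of the fibrinogen receptor, is encoded at 44372180 to 44389649 on chromosome 17 (GRCh38, minus strand). Its level came to 2.01 and 1.59 FPKM with sh-NC, against 2.08 and 2.07 FPKM with sh-LDB1, from 130 to 185 reads. The sh-LDB1 libraries were both above the sh-NC libraries, but sh-NC replicate 1 was close to them. A higher level without overlap was found for 38.3% of all genes tested. The log2 fold change came to 0.14 ± 0.119 (standard error, limma, 95% interval -0.18 to 0.46, adjusted p = 0.351). A fall as large as that of TUBB1 lay outside this interval.

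GP1BA (ENSG00000185245), the chain of the glycoprotein Ib complex that holds the VWF-binding site, is encoded at 4932277 to 4935023 on chromosome 17 (GRCh38, plus strand). Its level came to 1.11 and 1.08 FPKM with sh-NC, against 1.27 and 1.35 FPKM with sh-LDB1, from 40 to 51 reads. Both sh-LDB1 libraries were again above the sh-NC libraries, and the counting intervals of all 4 overlapped. The log2 fold change came to 0.14 ± 0.123 (standard error, limma, 95% interval -0.19 to 0.47, adjusted p = 0.365). Differences within this interval were not excluded.

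To set the 3 tested genes against each other, their ratios were taken within each library, where the scaling between libraries drops out. TUBB1 was 2.97 and 3.41 times the level of ITGA2B per length in sh-NC, and 0.137 and 0.183 times in sh-LDB1. Against GP1BA it was 5.37 and 4.99 times in sh-NC, and 0.224 and 0.281 times in sh-LDB1. TUBB1 thus stood above both genes in each sh-NC library and below both in each sh-LDB1 library. For both ratios the exact two-sided permutation test gave p = 0.333, the smallest value that 2 libraries against 2 allow.

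ITGB3 (ENSG00000259207; chromosome 17, 47253827 to 47313743, plus strand), the beta chain that pairs with ITGA2B, was at 0.169 and 0.108 FPKM in sh-NC. In sh-LDB1 it was at 0.469 and 0.105 FPKM. The reads numbered 12 and 7 with sh-NC, against 33 and 7 with sh-LDB1, at the fitted gene length. Multiples of these up to 48 and 28 with sh-NC and 132 and 28 with sh-LDB1 were also whole. The gene length does not settle which. The high value came from sh-LDB1 replicate 1 alone, and sh-LDB1 replicate 2 was the lowest library of the 4. ITGA2B was 11.9 and 14.7 times the level of ITGB3 per length in sh-NC, and 4.44 and 19.7 times in sh-LDB1. With no filter on low genes, ITGB3 did not pass (limma adjusted p = 0.504).

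The chemokines were at the limit of detection. PPBP (ENSG00000163736; chromosome 4, 73986439 to 73988190, minus strand) gave 0 and 0.190 FPKM with sh-NC, against 0.349 and 0 FPKM with sh-LDB1. These are 0, 4, 8 and 0 reads at a gene length near the annotated one. The numbers 0, 2, 4 and 0, and multiples of them up to 0, 10, 20 and 0, would also be whole. PF4 (ENSG00000163737; chromosome 4, 73980811 to 73982027, minus strand) was listed at 0 FPKM in 3 libraries. It was at 0.207 FPKM in sh-LDB1 replicate 1, from 3 reads at a gene length near the annotated one, although any number from 1 to 9 would also be whole. In each group, a library with no read stood beside a library with reads of PPBP. A count of 0 allows up to 3 reads, which at these lengths is 0.205 to 0.225 FPKM for PF4 in its 3 libraries at 0, and 0.130 and 0.139 FPKM for PPBP in its 2. The exact Poisson interval allows a little more, up to 3.69 reads. With no filter, the limma adjusted p-value was 0.755 for PPBP and 0.401 for PF4. Intervals and limits cover counting error only.

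A low value in this table need not be a low level of RNA. CDC42 and ILK, which nearly all cells use, were listed at 0.358 to 0.572 FPKM and at 0.448 to 0.873 FPKM. How reads in shared sequence were counted is not stated. In GENCODE release 44, another protein-coding gene on the same strand shares 52.1% of the exon bases of PF4 and 34.7% of those of PPBP. A further such gene shares 33.2% of those of ITGB3. No row was found for either overlapping gene, and whether the counting included them is not stated. The part of this overlap in the low values was not tested.

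In sh-NC the order of levels per length was TUBB1, ITGA2B, GP1BA and then the other 3 genes. The ranges of the first 3 genes did not overlap, while those of ITGB3 and PPBP did. In sh-LDB1 the order was ITGA2B and GP1BA, with TUBB1 within the range of ITGB3, and PPBP and PF4 reaching down to 0.

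The genes beside the members were also examined. TUBB1 overlaps ATP5F1E, a subunit gene of the mitochondrial ATP synthase on the other strand, which holds 1180 (35.5%) of its 3321 exon bases. ATP5F1E gave 27.5 and 25.7 FPKM with sh-NC, against 15.6 and 14.5 FPKM with sh-LDB1, a log2 fold change of -0.78 (standard error 0.0621) that missed the fold threshold. The use of strand is not stated, so reads in the shared bases cannot be assigned with certainty. CTSZ, which encodes the lysosomal protease cathepsin Z, lies 11191 bases from TUBB1 and fell from 56.1 and 49.9 FPKM to 10.7 and 11.5 FPKM. This is a log2 fold change of -2.16 ± 0.0762 (standard error, limma adjusted p = 0.000115). On the other side, PRELID3B had a log2 fold change of -0.27, within the fold threshold. Next to ITGA2B, FAM171A2 and GPATCH8 had log2 fold changes of 0.30 and 0.06, and SLC25A11 next to GP1BA had 0.54. None of these was called. FAM171A2 and SLC25A11 missed only the fold threshold (limma adjusted p = 0.0456 and 0.000572). Beside members that were low or not analysed here, some neighbours fell. MYL4, a myosin light chain gene beside ITGB3, fell from 116.1 ± 2.58 FPKM to 31.9 ± 0.321 FPKM, TBX1 beside GP1BB had a log2 fold change of -1.67, and C1orf112 beside SELP had -1.33.

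**Figure D2:**
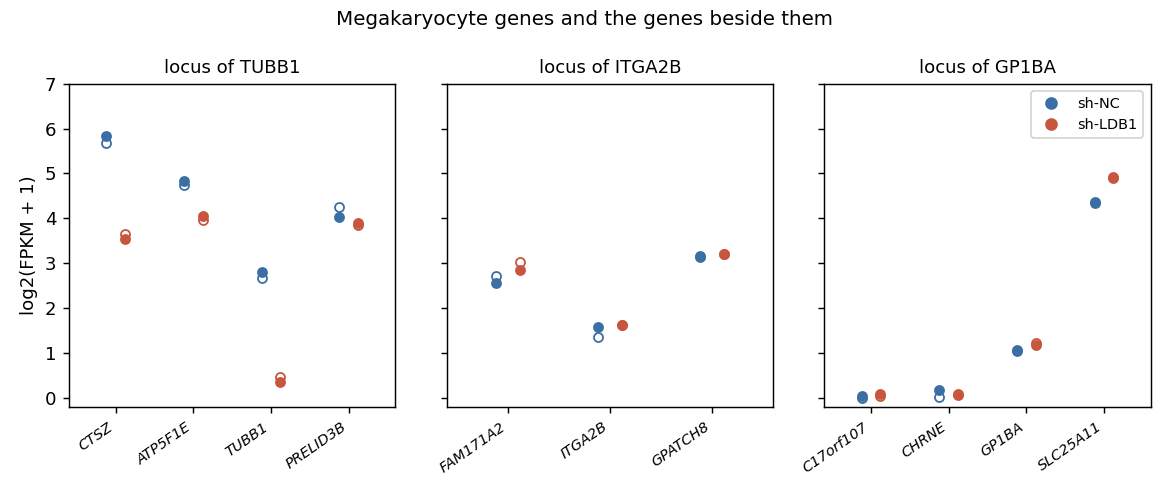
log2(FPKM + 1) of TUBB1, ITGA2B and GP1BA and of the genes that overlap or flank them. From the left, each panel shows the gene at lower coordinates, any overlapping gene, the gene of the locus and the gene at higher coordinates. Blue points are sh-NC and red points sh-LDB1, with replicate 1 filled and replicate 2 open. At the TUBB1 locus TUBB1 and CTSZ show a wide gap between the groups, and at the ITGA2B and GP1BA loci the groups lie close together.

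GP1BB itself was not analysed here, but 2 rows overlap it on chromosome 22. They are no members and were picked after their values were seen. SEPTIN5, a septin gene whose annotation overlaps GP1BB, gave 2.59 and 2.14 FPKM with sh-NC, against 0.515 and 0.589 FPKM with sh-LDB1 (limma log2 fold change -1.11, adjusted p = 0.00228). The read-through row SEPT5-GP1BB gave 0.331 and 0.276 FPKM with sh-NC, against 0.0401 and 0.0566 FPKM with sh-LDB1, from 25, 19, 3 and 4 reads. Both rows were lower in sh-LDB1, and their reads cannot be divided between the overlapping genes. VWFP1, a pseudogene copy of part of VWF, had 1 and 0 reads in sh-NC and 11 and 11 reads in sh-LDB1.

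Promoters of TUBB1 and ITGA2B are shown because 1 of these genes fell and the other did not. RefSeq (GRCh38.p14) promoters were found for 6 of the 10 genes, namely ITGA2B, GP1BB, GP9, PPBP, TUBB1 and SELP. The 250 bases before the gene start were searched on both strands for 5 kinds of motif of factors known from megakaryocyte promoters. Capitals mark a match. TUBB1 is from chr20:59019179-59019428 on the plus strand and ITGA2B from chr17:44389650-44389899 on the minus strand.
TUBB1: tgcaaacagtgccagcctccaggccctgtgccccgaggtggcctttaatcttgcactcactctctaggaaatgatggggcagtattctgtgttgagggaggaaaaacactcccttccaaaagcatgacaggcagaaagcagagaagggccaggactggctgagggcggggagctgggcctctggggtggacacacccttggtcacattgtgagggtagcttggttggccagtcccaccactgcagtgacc
ITGA2B: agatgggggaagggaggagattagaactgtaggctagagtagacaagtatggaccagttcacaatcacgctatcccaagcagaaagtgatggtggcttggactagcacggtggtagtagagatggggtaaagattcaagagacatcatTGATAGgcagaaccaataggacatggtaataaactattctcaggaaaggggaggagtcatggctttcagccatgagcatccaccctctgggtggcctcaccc
The ITGA2B sequence holds 1 GATA match, TGATAG, from base -102 to base -97 counted from the gene start, and no other match. The TUBB1 sequence holds 0 matches of any kind, which says only that these letters are not in this window.

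The GATA motif was searched as AGATAA or AGATAG, and with T as the first letter as TGATAA or TGATAG, and 22.3% of all 35116 RefSeq promoters held it in the same window. The ETS motif (CGGAAG or AGGAAG) was held by 40.8%, the TAL1 E-box (CAGATG or CAGCTG) by 24.3% and the RUNX motif (TGTGGT or TGCGGT) by 16.3%. The NF-E2 motif (TGAGTCA or TGACTCA) was held by 4.2%. PPBP, at 0 to 8 reads by its fitted length, held 3 ETS matches, 1 GATA match that overlaps one of them, and 1 RUNX match. Of the genes not analysed here, GP9 held 2 overlapping ETS matches, 1 E-box and 1 RUNX match, and GP1BB and SELP held 1 match each of GATA, ETS and RUNX. Matches are a description of the sequence, not of binding.

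**Figure D3:**
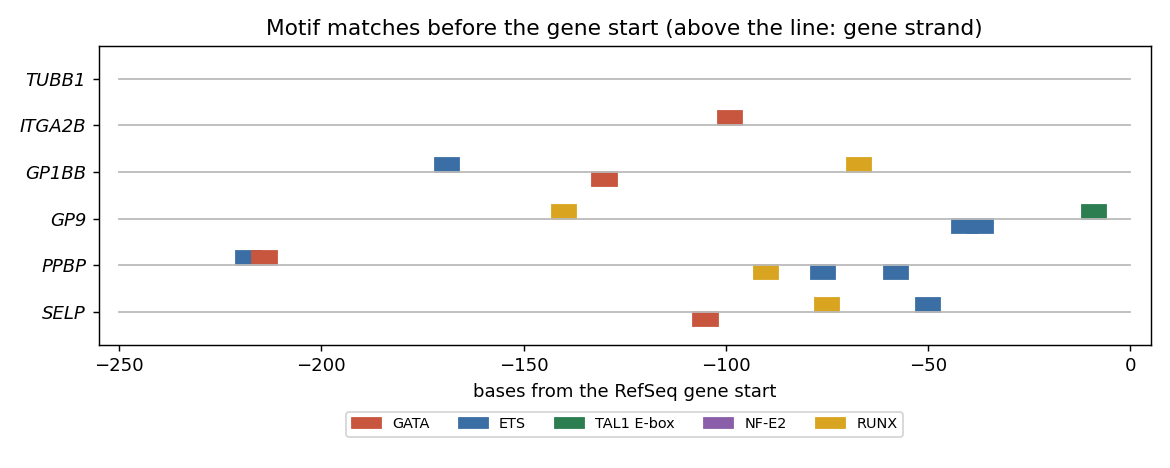
Motif matches in the 250 bases before the RefSeq gene start of 6 genes, with the distance from the start in bases. Boxes above a line are on the strand of the gene and boxes below it on the other strand. TUBB1 has 0 matches, ITGA2B 1 GATA match and PPBP 5 matches.

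The other genes of the lineage were described from lists of platelet receptors, granule and secretion genes, proplatelet cytoskeleton, integrin signalling and transcription factors. Among 11 tested platelet receptors, 3 fell and 3 rose (median log2 fold change 0.05, against -0.08 over all genes tested). Over all genes tested, 10.3% were called lower and 9.5% higher, the shares to set beside the counts of every list. The thrombin receptors F2R and F2RL3 and the scavenger receptor CD36 fell. F2R fell to 34.1% of its control level, and F2RL3 from 8.50 ± 0.864 FPKM to 1.64 ± 0.341 FPKM (SD, n = 2 each). The ATP receptor P2RX1, PEAR1 and the granule membrane protein CD63 rose, P2RX1 from 2.08 ± 0.00132 FPKM to 9.65 ± 0.618 FPKM. A further 11 receptors had a mean over the 4 libraries under 1 FPKM and were not tested. FCER1G, the signalling partner of the collagen receptor GP6, was listed at 0 FPKM in both sh-NC libraries and had a mean of 0.962 ± 0.197 FPKM in sh-LDB1 (SD, n = 2), the higher library above 1 FPKM. GP5, the remaining chain of the glycoprotein Ib complex, was at 0.0192 to 0.150 FPKM.

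Of 17 tested granule and secretion genes, 5 rose, 0 fell and 12 were not called (median log2 fold change 0.43), against 9.5% higher and 10.3% lower over all genes tested. By the adjusted p-value alone, 10 were higher and 2 lower, against 29.9% higher and 37.4% lower over all genes tested. The latter were ANGPT1, a ligand of the receptor TEK, at 49.6% of its control level, and RAB27A, a GTPase of granule secretion, at 65.3%. A granule gene (1) was called lower with a pseudocount of 0.01 and with voom. The cytokine TGFB1 rose from 89.0 ± 2.81 FPKM to 244.7 ± 1.60 FPKM. CLU, PDGFB and STXBP2 also rose. These genes are not particular to platelets. THBS1, F5 and MMRN1, further alpha granule proteins, were at most 0.102 FPKM in any library. Of 14 tested genes of the proplatelet cytoskeleton, 2 fell (DIAPH1, PARVB) and 3 rose (TPM4, WAS, MYL9), with a median of -0.14. TUBA4A, an alpha tubulin of platelets, gave 13.5 and 15.0 FPKM with sh-NC, against 11.7 and 12.4 FPKM with sh-LDB1. Of 21 tested genes of integrin activation and signalling, 1 fell (PRKCQ) and 2 rose (CIB1, PLCG2), with a median of -0.18. CIB1, which binds the cytoplasmic tail of the ITGA2B chain, rose from 35.6 ± 0.831 FPKM to 86.2 ± 5.42 FPKM (log2 fold change 1.25, standard error 0.0588).

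Transcription factors had the lowest median of these lists, -0.74. Of 17 tested, 7 were lower and 1 was higher, against 10.3% and 9.5% of all genes tested. NFE2, a regulator of platelet release and of TUBB1 in megakaryocytes, fell from 158.1 ± 6.82 FPKM to 20.6 ± 0.501 FPKM (log2 fold change -2.88, standard error 0.0501). GATA1 fell by 1.83 on the log2 scale, GFI1B by 2.55 and LMO2 by 2.19. CBFB, the partner of RUNX1, rose by 1.02, a call that was lost without sh-NC replicate 2. FLI1 was not analysed here, and ERG was at most 0.0435 FPKM in any library.

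VWF and SELP are also made by endothelial cells, so endothelial markers were examined. Of 15 markers with a row, 10 had a mean over the 4 libraries under 1 FPKM. Of these, CLDN5 had a mean of 0.240 ± 0.144 FPKM in sh-NC and of 1.27 ± 0.329 FPKM in sh-LDB1, and KDR and SELE were listed at 0 FPKM in both sh-NC libraries. EGFL7 fell from 140.5 ± 13.2 FPKM to 37.0 ± 2.81 FPKM (SD, n = 2 each), and it made up most of the summed level of the list, 167.3 and 148.5 FPKM in sh-NC and 60.8 and 64.8 FPKM in sh-LDB1. ICAM2 was also called lower, MMRN2 was called higher, and NOS3 and SOX18 were not called. The part of these markers in the results was not tested.

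**Figure D4:**
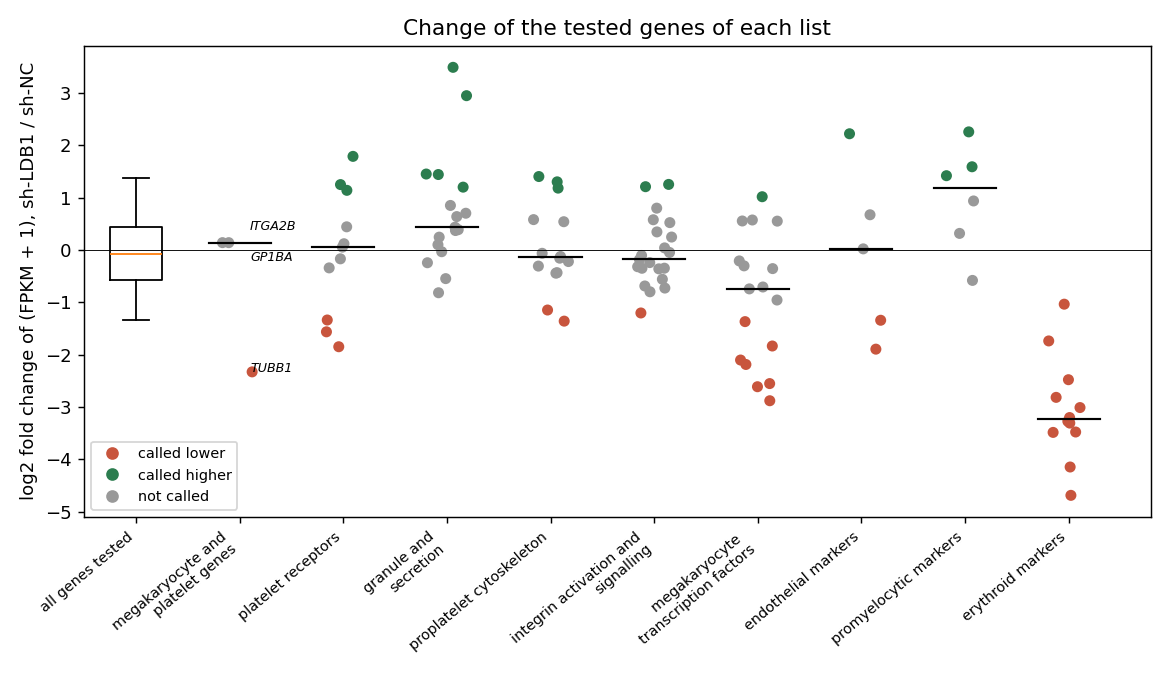
Log2 fold change of (FPKM + 1) in sh-LDB1 against sh-NC for the tested genes of each list. Each point is a gene, red if called lower, green if called higher and grey if not called, the black lines are medians, and the box shows the quartiles of all 13300 genes with whiskers at percentiles 5 and 95. TUBB1 lies at -2.33 and ITGA2B and GP1BA at 0.14, while the 12 erythroid markers are all called lower.

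To find genes with a pattern like that of TUBB1, the 4 values of log2(FPKM + 1) were compared with those of 28406 other genes by Euclidean distance. The nearest were RELN (distance 0.14), MLLT3 (0.261) and ESPN (0.317). RELN, which encodes the matrix protein reelin, gave 5.69 and 5.68 FPKM with sh-NC, against 0.375 and 0.434 FPKM with sh-LDB1. MLLT3, a chromatin reader of the YEATS family, gave 4.82 and 5.41 FPKM with sh-NC, against 0.292 and 0.374 FPKM with sh-LDB1. ESPN encodes an actin-bundling protein and gave 5.28 and 5.71 FPKM with sh-NC, against 0.189 and 0.162 FPKM with sh-LDB1. The likeness rests on 4 libraries in 2 groups and is a description only.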

How the data were processed

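RNA-seq was measured in 2 sh-NC and 2 sh-LDB1 libraries, grouped and numbered by their labels. Reads were filtered by the authors and aligned to hg38 (HISAT2 2.0.5). They deposited 1 table of FPKM, with 1 value per gene and library. The counting tool, the annotation, the use of strand and the scaling between libraries are not given in the sources used here. The replicates were not pooled, and 0 columns belonged to no sample.

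Whole reads were recovered from the FPKM values, since each is a multiple of the value of a single read. The fitted gene length was within 10% of that of GENCODE release 44 (GRCh38) for 87.2% of the genes recovered. For the rest the smallest length that gave whole reads was taken. LDB1 was fitted at 2790 bases, against 3776 annotated, and ITGB3 at 4394, against 6829. With a tolerance of 0.001 reads, 99.3% of the genes in that annotation with a value above 0 came out whole. The read numbers serve as depth.

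The filter kept genes whose mean reached 1 FPKM, tested on log2(FPKM + 1) with limma 3.58.1 in R 4.3.3 (eBayes with a trend, no replicate block, two-sided). The remaining steps used Python 3.11.15. The read recovery and the main limma fit were also tried on simulated data, and the other tests were not. Of 161 genes on the accompanying lists, 144 had a row. The members, the lists and the rule for named genes were chosen with earlier results of these data known. Named genes were the members, LDB1, up to 4 called genes per list by the smallest adjusted p-value (or, with none called, the 2 with the highest mean), the 2 highest endothelial, promyelocytic and erythroid markers, the neighbours of called members, and the 3 genes nearest to a called member. Genes named beyond this rule, such as CDC42, ILK, GP5, FCER1G, CLDN5, CEBPE, MS4A3, ANGPT1, RAB27A, TUBA4A, THBS1, ERG and the genes beside members without a call, were chosen after their values were seen. Some genes that the rule names are not reported here.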

Additional observations from a re-analysis of the deposited data

How the results depend on the processing

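The call of TUBB1 as lower, and the absence of a call for ITGA2B and GP1BA, held under all 15 alternatives run. Across them the log2 fold change of TUBB1 ranged from -4.08 to -2.23, that of ITGA2B from 0.03 to 0.25 and that of GP1BA from 0.12 to 0.25. No paired source is stated for equal replicate numbers, and their deviations did not correlate (r = 0.0196 across 13300 genes, which are not independent replicates). With the replicate block, TUBB1 had an adjusted p-value of 0.000679, 1386 genes were lower and 1274 higher, and no count of calls given here moved by over 1.5 times.

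Scaling to the same summed FPKM moved the median log2 fold change of all genes from -0.08 to 0.06 and the calls from 1371 lower and 1264 higher to 1001 and 1602, and the median of ratios gave 1145 and 1462. TUBB1 was at -2.23 and -2.27 under these.

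With no fold-change threshold, all genes gave 4978 lower and 3983 higher, granule and secretion genes 2 and 10, the proplatelet cytoskeleton 7 and 5, integrin signalling 10 and 5, and transcription factors 13 and 4, and 2 endothelial markers were higher. Under treat against a fold change of 2, all genes gave 581 lower and 568 higher, 1 platelet receptor was higher, the proplatelet cytoskeleton had 1 lower and 0 higher, integrin signalling 0 and 0, 0 transcription factors were higher and 1 endothelial marker was lower. Integrin signalling had 2 lower genes with a pseudocount of 0.1, of 0.01 and with voom. A granule gene was called lower (1) at a pseudocount of 0.01 and with voom, and 1 promyelocytic marker was lower with voom. Leaving out each library in turn gave 0 to 1 higher transcription factors: CBFB was not called without sh-NC replicate 2. The cause of these shifts beyond the thresholds themselves was not tested. At 0 to 33 reads by the fitted lengths, no change of ITGB3, PPBP or PF4 was called, and so few reads do not exclude a change.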
